A study of Mus musculus with 4 samples.

Results

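The 9 genes described here are transcripts that cells make when interferon signals to them: Ifit1, Ifit3, Isg15, Usp18, Oasl2, Bst2, Ifitm3, Ifi27l2a and Irf7. They were chosen by name, as all non-control probes that carry 1 of these gene names on the arrays. All 9 were found, with 11 probes, among 20655 gene names with a probe well above background on all 4 arrays. The list was drawn up with values of these same arrays in view, so every value below is a description and no test was made on it.

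The tissue was prefrontal cortex of 3-month-old B6J mice. The 4 groups were wild-type mice on a starch diet (the control), wild-type mice on a sucrose diet, Glo1 heterozygotes on starch and Glo1 heterozygotes on sucrose. Each diet began at weaning, on postnatal day 21, and lasted about 70 days. Glo1 encodes glyoxalase 1, an enzyme that removes methylglyoxal, and how its allele was made is not given in the sources used here, nor is the sex of the mice. In each group 3 RNA samples were pooled, and the pool was hybridised to 1 single-colour array, the 4 arrays sharing 1 slide. A group therefore has 1 value and no error between mice, and slide position cannot be told apart from group.

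Type I interferons bind a receptor made of the Ifnar1 and Ifnar2 chains, which signals through the kinases Jak1 and Tyk2. A complex that holds Stat2 and Irf9 then binds the interferon-stimulated response element before many antiviral genes. In brain, microglia, endothelial cells, astrocytes and neurons can all respond, and low transcript levels are present without infection. Interferon gamma signals through its own receptor to the gamma-activated sequence.

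Levels are given throughout as multiples of the array's own 75th percentile signal, and differences as log2. Cortical excitatory neuron markers were well above background for 7 of 7 genes, with a summed level of 32.8 to 41.5. The summed level of 9 choroid plexus markers was 0.912 to 2.19 on 3 arrays and 70.8 on the heterozygous sucrose array. Striatal neuron markers (8 genes) summed to 53.3 on wild-type sucrose and 49.5 on heterozygous starch, against 32.3 on wild-type starch and 27.6 on heterozygous sucrose. Glo1 levels were 4.04 on wild-type starch, 5.53 on wild-type sucrose, 2.74 on heterozygous starch and 3.04 on heterozygous sucrose. The part of these tissue markers in the differences below was not tested.

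Promoter sequence of the members is shown first, because the response element was searched for there. RefSeq promoter windows of assembly GRCm38.p6, 250 bases before to 50 bases after the gene start, were matched by symbol for 7 of the 9 members. Usp18 and Ifi27l2a were not matched. The windows were searched on both strands for GAAA, any 2 bases and GAAA again, the core of the interferon-stimulated response element, and for TTCNNNGAA, the gamma-activated sequence, which reads alike on both strands. Of the 7 windows, 5 held the response element, and each of these 5 held at least 2 matches. Among all 32851 windows, 3.44% held a match and 0.225% held 2 or more. The 250 bases before the start follow for the 4 genes whose matches lie there, on the gene's strand at chr4:156200819-156201068 (minus), chr19:34640639-34640888 (plus), chr19:34583279-34583528 (plus) and chr8:71537473-71537722 (minus). Capitals mark the response element in either orientation.
Isg15: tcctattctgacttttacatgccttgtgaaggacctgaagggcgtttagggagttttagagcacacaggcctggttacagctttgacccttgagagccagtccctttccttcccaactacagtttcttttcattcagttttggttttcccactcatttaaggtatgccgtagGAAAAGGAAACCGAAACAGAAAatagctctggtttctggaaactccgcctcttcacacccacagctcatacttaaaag
Ifit1: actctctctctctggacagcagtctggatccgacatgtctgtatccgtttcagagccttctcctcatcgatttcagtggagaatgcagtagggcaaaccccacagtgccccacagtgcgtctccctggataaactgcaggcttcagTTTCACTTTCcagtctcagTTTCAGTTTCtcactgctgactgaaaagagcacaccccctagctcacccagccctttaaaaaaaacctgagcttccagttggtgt
Ifit3: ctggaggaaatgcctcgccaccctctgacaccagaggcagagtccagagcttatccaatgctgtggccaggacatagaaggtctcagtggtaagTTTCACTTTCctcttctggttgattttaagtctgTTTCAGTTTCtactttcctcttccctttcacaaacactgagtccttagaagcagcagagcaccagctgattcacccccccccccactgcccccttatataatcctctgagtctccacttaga
Bst2: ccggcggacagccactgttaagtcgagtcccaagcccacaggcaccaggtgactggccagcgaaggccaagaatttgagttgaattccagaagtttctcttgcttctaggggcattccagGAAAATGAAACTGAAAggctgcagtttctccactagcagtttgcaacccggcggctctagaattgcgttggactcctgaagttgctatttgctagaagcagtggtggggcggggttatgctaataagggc

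In Isg15 the 3 matches overlapped into 1 run, from position -78 to -57 counted from the start. Ifit1 and Ifit3, both on chromosome 19, each had 2 matches on the opposite strand, with the same matched letters in both genes. In Ifit1 they began at positions -104 and -85, and in Ifit3 at -156 and -122. Bst2 had 2 overlapping matches, from position -130 to -115, and a gamma-activated sequence that shares bases with the first. In Ifitm3 both matches lay just after the annotated start, at chr7:141010716-141010742 on the minus strand, with a gamma-activated sequence between them that shares bases with the second.
Ifitm3: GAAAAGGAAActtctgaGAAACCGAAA

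No match was found in the Irf7 and Oasl2 windows, which says only that these letters are not in these 300 bases. The gamma-activated sequence occurred in 2 of the 7 member windows and in 8.3% of all windows. A match is a description of sequence and no evidence of binding in this tissue.

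**Figure D1:**
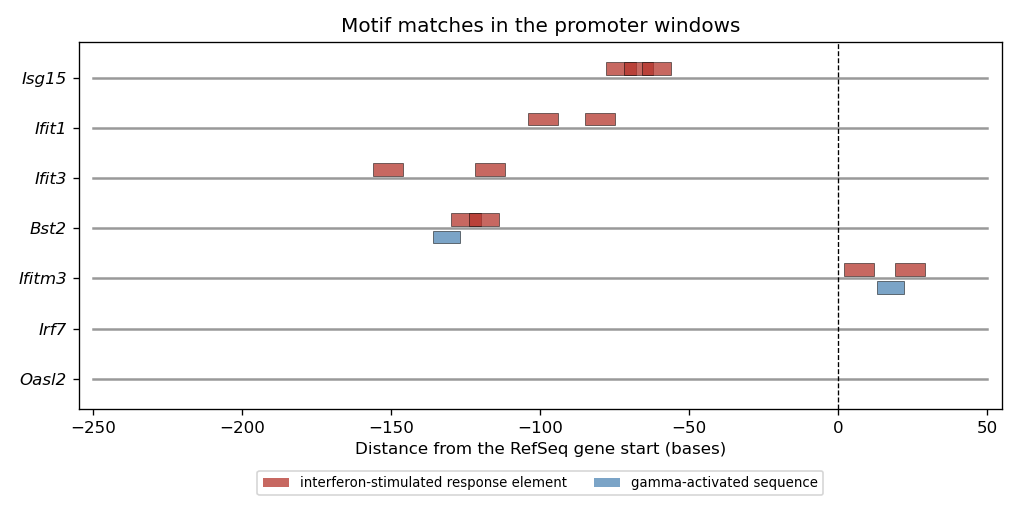
Matches of the interferon-stimulated response element (red, above the line) and the gamma-activated sequence (blue, below the line) in 7 promoter windows; the x axis is the distance from the RefSeq gene start in bases. Red matches lie before the start in Isg15, Ifit1, Ifit3 and Bst2 and just after it in Ifitm3, and the Irf7 and Oasl2 windows hold none.

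The comparison of sucrose with starch was read separately in each genotype. In wild-type mice all 9 genes were lower on sucrose (50.1% of all genes were), with log2 differences from -1.38 (Isg15) to -0.47 (Ifitm3) and a median of -0.71. In heterozygous mice 8 of the 9 were lower (49.9% of all genes), with a median of -0.67 and a range from -1.04 (Ifi27l2a) to 0.10 (Bst2). The median over all measured genes was 0.00 in both comparisons. In wild-type mice 6 of 9 members were lower by 1.5-fold or more, against 3.53% of all genes, and 3 were lower by 2-fold or more, against 0.992%. In heterozygous mice 5 of 9 were lower by 1.5-fold or more, against 2% of all genes, and 1 by 2-fold or more, against 0.479%. No member was higher by 1.5-fold in either genotype, where 2.4% and 3.57% of all genes were. The members were listed with these differences known, so these shares describe the choice and support nothing.

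The 2 diet differences use no common array. Lower by any amount in both were 8 members, beside 30.2% of all genes. Lower by 1.5-fold or more in both genotypes were 4 members (Ifit1, Isg15, Usp18 and Ifi27l2a), beside 0.804% of all genes. Under normexp, another background correction, Ifit1 had -0.54 in wild types and was no longer past 1.5-fold there. With the mean over its probes Irf7 had -0.68 and -0.63, past 1.5-fold in both genotypes. For 8 members both starch arrays lay above both sucrose arrays, an order that 20.1% of all genes had, and Bst2 was the exception. Without the heterozygous sucrose array, which stood apart in choroid plexus markers, both starch arrays lay above the wild-type sucrose array for 9 of 9 members and for 31.5% of all genes. Without the wild-type sucrose array the count was 8 (36.1%), without wild-type starch 8 (32.3%) and without heterozygous starch 9 (39.5%). Each of these orders asks less than the order of all 4 arrays, so the count could not fall below 8. With all 4 arrays the order held for 8 members under every one of 8 processing alternatives. Some of these could not change it for the members: the authors' matrix, keeping outlier spots and keeping dim probes. In bulk tissue, fewer cells of a type and less RNA per cell cannot be told apart.

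**Figure D2:**
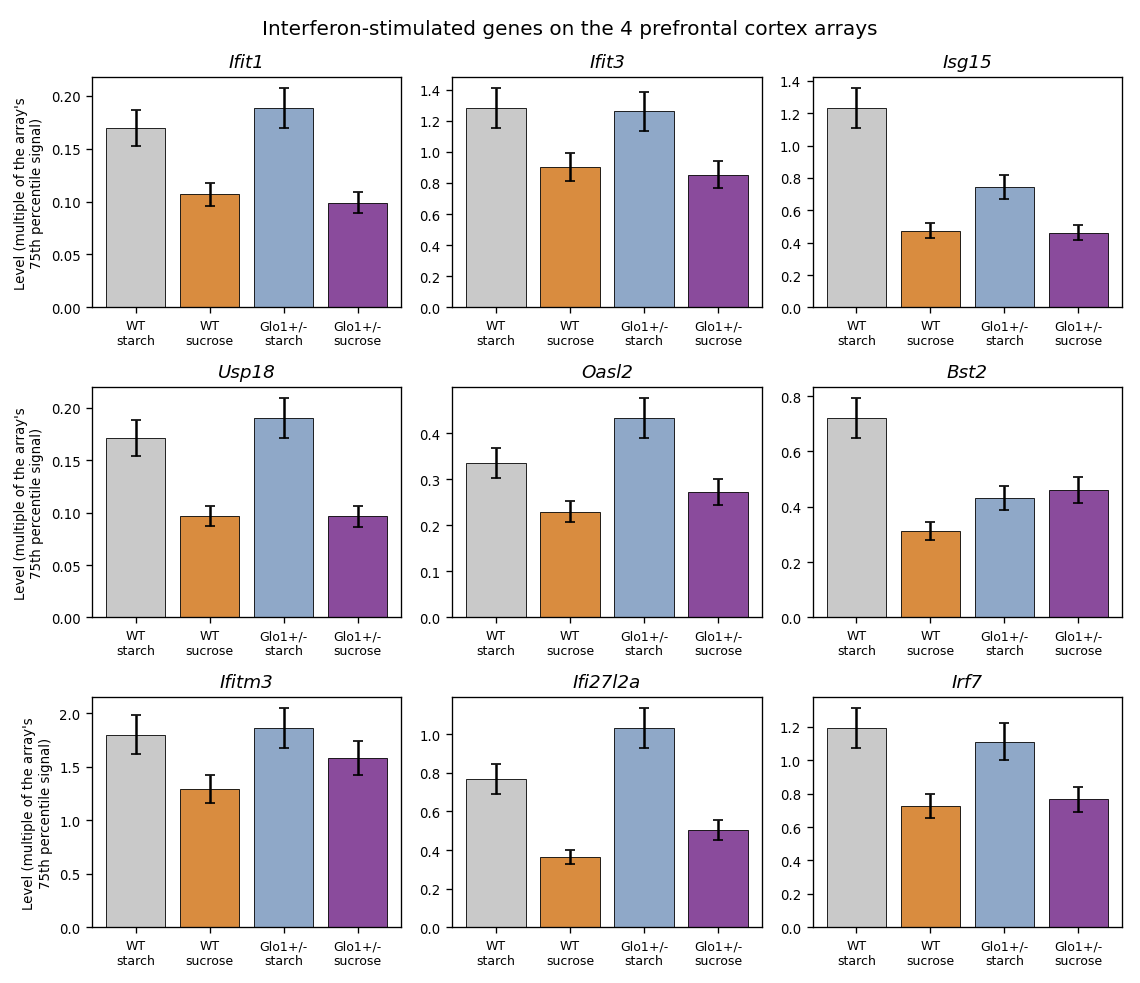
Level of each of the 9 members on the 4 arrays, as a multiple of the array's 75th percentile signal, 1 bar per pool of 3 RNA samples; each y axis starts at 0. Error bars are the scanner software's error of 1 spot, not a spread between mice. The sucrose bars lie below both starch bars in every panel but that of Bst2.

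Ifit1 and Ifit3 encode tetratricopeptide repeat proteins of 1 family, of which Ifit1 binds viral RNA and blocks its translation. Ifit1 (A_55_P2911888, mm9 chromosome 19, 34723827 to 34723886) had levels of 0.169 and 0.107 on wild-type starch and sucrose, and 0.188 and 0.099 on heterozygous starch and sucrose. Both sucrose pools were low and close to each other, and the heterozygous starch pool was highest. The log2 diet differences were -0.66 in wild types and -0.93 in heterozygotes, where the software's own error model gives a single-spot difference an error of 0.21. This error is of the spot and not of the spread between mice. Ifit3 (A_51_P359570, mm9 chromosome 19, 34663105 to 34663164) had levels of 1.28 and 0.903 in wild types and 1.26 and 0.853 in heterozygotes. Its starch pools differed by 0.02 and its sucrose pools by 0.08 on the log2 scale, so the values fell into 1 pair per diet. The diet differences of Ifit3 were -0.50 and -0.57, with an error of 0.20.

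Relatives of both genes on the array, named after their values were seen, were also lower on sucrose. Ifit3b, a close copy of Ifit3, was lower on sucrose by a log2 difference of -0.78 in wild types and -0.59 in heterozygotes. Ifit2 had differences of -0.32 and -0.18. Whether the Ifit3 and Ifit3b probes share signal was not tested.

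Isg15 encodes a ubiquitin-like protein that is attached to other proteins and also secreted. Its probe (A_55_P2103698, mm9 chromosome 4, 155573649 to 155573708) read 1.23 on wild-type starch, 0.474 on wild-type sucrose, 0.743 on heterozygous starch and 0.46 on heterozygous sucrose. The wild-type starch pool was the highest, heterozygous starch lay between, and both sucrose pools were alike. Sucrose was at 38.5% of starch in wild-type mice (log2 difference -1.38) and at 61.9% in heterozygous mice (-0.69), each with an error of 0.20. The 2 diet differences were 0.68 apart, and the genotype difference was -0.73 on starch and -0.04 on sucrose.

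Usp18 encodes the protease that removes Isg15 from proteins and that also dampens signalling at the type I receptor. Its levels were 0.171 and 0.097 in the wild-type starch and sucrose pools, against 0.19 and 0.0965 in the heterozygous pair (A_55_P2114953, mm9 chromosome 6, 121220874 to 121220933). The sucrose pools differed by 0.01 and the starch pools by 0.15 on the log2 scale. Diet differences were -0.82 and -0.97, both with an error of 0.21. For Uba7, Ube2l6, Herc6 and Trim25, which act in attaching Isg15, the diet differences ran from -0.24 to 0.10 in wild types and from -0.17 to -0.01 in heterozygotes. These 4 genes were singled out after their values were seen.

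Oasl2 belongs to the oligoadenylate synthetase family, whose members sense double-stranded RNA. Its levels were 0.335 and 0.229 in the wild-type starch and sucrose pools, against 0.432 and 0.272 in the heterozygous pair (A_51_P387123, mm9 chromosome 5, 115362168 to 115362227). Both heterozygous pools were above the wild-type pool of the same diet, and starch above sucrose in each genotype. The diet differences were -0.55 and -0.67, and the genotype differences 0.37 on starch and 0.25 on sucrose. Its relative Oasl1 had diet differences of -0.65 and -0.89 on its brightest probe and of -0.47 and -0.17 on the other.

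Bst2 encodes tetherin, a membrane protein that holds budding virus particles on the cell surface, and it departed from the others. It was measured by 1 probe of 60 bases (A_51_P169693, mm9 chromosome 8, 74058603 to 74058662), shown because the exception rests on it.
Bst2 probe: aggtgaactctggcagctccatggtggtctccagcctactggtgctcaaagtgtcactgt

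Its levels were 0.72 on wild-type starch, 0.312 on wild-type sucrose, 0.431 on heterozygous starch and 0.461 on heterozygous sucrose. The wild-type starch pool was high and the other 3 lay lower, with wild-type sucrose lowest. Diet differences were -1.21 in wild types and 0.10 in heterozygotes, each with an error of 0.20. Heterozygotes were lower on starch (-0.74) and higher on sucrose (0.56), and the difference between the 2 diet differences was 1.30. No spread between mice is known, so that difference was not tested.

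Ifitm3 encodes a small membrane protein that restricts virus entry from endosomes. Its levels were 1.80 and 1.29 in the wild-type starch and sucrose pools, against 1.86 and 1.58 in the heterozygous pair (A_55_P2762554, mm9 chromosome 7, 148195489 to 148195548). The starch pools were close and the heterozygous sucrose pool lay between them and the wild-type sucrose pool. Diet differences were -0.47 and -0.24, each with an error of 0.20. In the same family Ifitm1 had differences of -0.18 and -0.24, and Ifitm6 had positive ones of 0.18 and 0.25, both named after their values were seen.

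Ifi27l2a encodes a small interferon-induced protein. The probe for transcript NM_029803 (A_52_P90363, mm9 chromosome 12, 104680394 to 104680453) read 0.766 and 0.363 in the wild-type starch and sucrose pools, against 1.03 and 0.505 in the heterozygous pair. Heterozygous pools were above wild-type ones by 0.43 on starch and 0.47 on sucrose, and sucrose was at 47.4% and 48.8% of starch. The diet differences, -1.08 and -1.04, were 0.04 apart. Its relative Ifi27, named after its values were seen, had differences of -0.31 and -0.42 on its 2 probes in wild types and of 0.09 and 0.10 in heterozygotes. A second Ifi27l2a probe, for transcript NM_001281830, was not well above background on any of the 4 arrays and gives no difference.

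Irf7 is the transcription factor that amplifies type I interferon production, and it was measured by 2 probes. The brightest (A_55_P2744251, mm9 chromosome 7, 148449104 to 148449163) read 1.19 and 0.727 in the wild-type starch and sucrose pools, against 1.11 and 0.765 in the heterozygous pair. The other (A_51_P421876, 148450664 to 148451014) covers 351 bases of genome with 60 bases of sequence, as a probe across an exon junction does.
Irf7 probe: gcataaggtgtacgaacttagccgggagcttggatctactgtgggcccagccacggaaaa

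It read 0.0451 and 0.0288 in wild types and 0.0434 and 0.0265 in heterozygotes. On both probes the 2 starch pools were high and the 2 sucrose pools low, with no overlap. Diet differences were -0.71 and -0.54 on the first probe and -0.65 and -0.71 on the second, where the error is 0.22 to 0.23. Both probes read the same RNA pools, so they are a check of the probe and not of the mice.

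**Figure D3:**
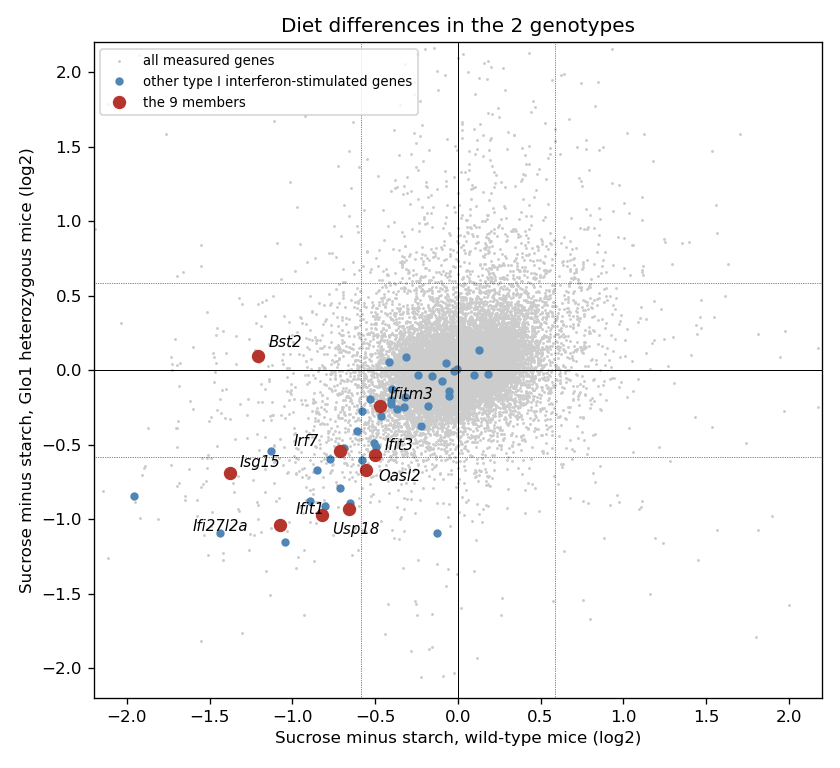
Log2 difference of sucrose minus starch in wild-type mice (x) and in Glo1 heterozygous mice (y) for 20560 of the 20655 genes (grey; 95 lie outside the axes), with the 9 members in red and the other type I interferon-stimulated genes in blue; dotted lines mark 1.5-fold. All members but Bst2 lie below 0 on both axes.

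Heterozygous mice were then compared with wild-type mice on the same diet. On starch the members had a median log2 difference of 0.05 and a range from -0.74 to 0.43, with 4 lower (54% of all genes) and 5 higher. Isg15 and Bst2 were lower by 1.5-fold or more, as 2.48% of all genes were, and none was higher by that much (1.48% of all genes). On sucrose the median was 0.07 and the range -0.12 to 0.56, with 4 lower (54.9% of all genes). There was no member past 1.5-fold in either direction, beside 1.29% lower and 3.29% higher of all genes. The sucrose median was -0.01 when the probes of a gene were averaged, so its sign is not settled. Oasl2 and Ifi27l2a were the members higher in heterozygotes by more than 0.2 on both diets.

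The heterozygous sucrose pool was also set against the wild-type starch pool, arrays that the comparisons above use too. All 9 members were lower (52.7% of all genes). The median was -0.64, and 6 members were lower by 1.5-fold or more, beside 3.39% of all genes, and none was higher by that much (3.93%). The interaction, the heterozygous minus the wild-type diet difference, had a median of 0.04 over the members. It was past 1.5-fold for Bst2 (1.30) and Isg15 (0.68), as for 5.68% of all genes, and for no member in the other direction (2.76%).

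Across the members the array that was highest was wild-type starch for 4 (Ifit3, Isg15, Bst2 and Irf7), as for 31.4% of all genes, and heterozygous starch for the other 5, as for 20.2%. The lowest was wild-type sucrose for 5 (21.2% of all genes) and heterozygous sucrose for 4 (26.3%). Centred on each gene's own mean, the average profile of the 9 was 0.38 on wild-type starch, -0.44 on wild-type sucrose, 0.34 on heterozygous starch and -0.28 on heterozygous sucrose. Irf7 lay nearest to that profile, at a root mean square distance of 0.057. Isg15 and Bst2 lay farthest, both at 0.296, followed by Ifi27l2a at 0.265.

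The same question was put to the rest of the pathway through lists of its ligands, receptors, signalling proteins and target genes. These lists were drawn up with earlier results of these data known, so their counts are descriptions and no independent support. Among 8 interferon genes, Ifna2 and Ifnl3 were well above background on all arrays, with diet differences between -0.10 and 0.11. Ifnb1, Ifna4 and Ifne were well above background on 0 arrays, Ifng on 1 and Ifnk on 2, and Ifnl2 was not analysed here. Of 6 receptor genes none was lower by 1.5-fold, beside 3.53% and 2% of all genes, and their medians were 0.04 and 0.11 for diet in wild-type and heterozygous mice. Ifnar1 and Ifnar2 had differences between -0.02 and 0.14. Ifnlr1, the interferon lambda receptor chain, was higher on sucrose by 0.74 and 0.55, on a probe in the dimmest quartile that gave 0.20 and 0.19 with another background correction.

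The 11 signal transduction genes had medians of -0.23 and -0.06 for diet, with 8 lower in each genotype (50.1% and 49.9% of all genes). Irf9, Stat2 and both receptor kinases are named here after their values were seen. Irf9 had diet differences of -0.28 and -0.30, and Stat2 of -0.02 and -0.06. The receptor kinase Jak1 had 0.10 and 0.06, while Tyk2 had -0.65 and 0.15. Nucleic acid sensors (10 genes) had medians of -0.12 and -0.05, and 1 of them, Zbp1, was lower by 1.5-fold or more, in heterozygous mice (-1.13, or -0.59 under normexp), where 2% of all genes were. The 6 negative regulators, Usp18 included, had medians of -0.31 and -0.06. Both starch arrays lay above both sucrose arrays for 6 signal transduction genes, 5 sensors, 2 negative regulators and 0 receptor genes (20.1% of all genes).

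Most target genes outside the 9 were also lower on sucrose. Of 44 other type I interferon-stimulated genes 40 were measured, and their median diet difference was -0.41 in wild types and -0.26 in heterozygotes, with the same sign under all 8 alternatives. In wild-type mice 37 of 40 were lower (50.1% of all genes), 12 of them by 1.5-fold or more (3.53%). In heterozygous mice 35 were lower (49.9%), 11 by 1.5-fold or more (2%). None was higher by 1.5-fold, where 2.4% and 3.57% of all genes were. Background correction by normexp with an offset of 50 gave 5 and 4 genes in place of 12 and 11, and under it 1.58% and 0.901% of all genes were lower by that much. Both starch arrays lay above both sucrose arrays for 31 of the 40 and below them for 0, where 20.1% and 22% of all genes had these orders.

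Cxcl10, a chemokine that attracts T cells, had levels of 0.191 and 0.0493 in the wild-type starch and sucrose pools, against 0.0978 and 0.0545 in the heterozygous pair. As for Isg15, wild-type starch was highest and both sucrose pools were low, with diet differences of -1.96 and -0.84. Isg20, an exonuclease, read 0.755 and 0.279 in wild types and 0.622 and 0.293 in heterozygotes, differences of -1.44 and -1.09. Oas2, another oligoadenylate synthetase, had differences of -1.05 and -1.15, and Oas1a of -0.80 and -0.91. The antiviral GTPase Mx1 had -0.90 and -0.88, Ifi44 had -0.71 and -0.79, and Ifi204, of the DNA-sensing Ifi200 family, -1.13 and -0.54. Ifi205 of the same family had -0.85 and -0.67. Ddx60, an RNA helicase on a dim probe, had -0.13 and -1.09. Oas, Ifi200 and Gbp genes have close copies, and cross-hybridisation among them was not tested. Of the 15 pathway genes named for the largest spans, 12 were in the lower 2 quartiles of signal, and under normexp the differences were -1.45 and -0.58 for Cxcl10, -0.47 and -0.40 for Mx1, -0.41 and -0.24 for Ifi205, and -0.28 in heterozygotes for Ddx60. Ifi44 had -0.50 and -0.49 under normexp, past 1.5-fold in neither genotype. Averaging the probes of Oasl1 gave -0.53 in heterozygotes.

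Genes of the interferon gamma GTPase list, which act on intracellular pathogens, also lay lower on sucrose. Of 16 listed 15 were measured, with median diet differences of -0.59 in wild types and -0.31 in heterozygotes, negative under all 8 alternatives. In wild-type mice 8 were lower by 1.5-fold or more (3.53% of all genes) and in heterozygous mice 4 (2%). Under normexp the counts were 6 (1.58% of all genes) and 0 (0.901%). Gbp6 had levels of 0.116 and 0.0397 in wild types and 0.0691 and 0.0459 in heterozygotes, differences of -1.55 and -0.59 (-1.05 and -0.39 under normexp). Gbp2 had -0.75 and -0.63, Gbp8 -0.82 and -0.71 (-0.45 and -0.30 under normexp), and Gm4951 -1.03 and -0.68 (-0.77 and -0.50 under normexp). Both starch arrays lay above both sucrose arrays for 13 of the 15 (20.1% of all genes).

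**Figure D4:**
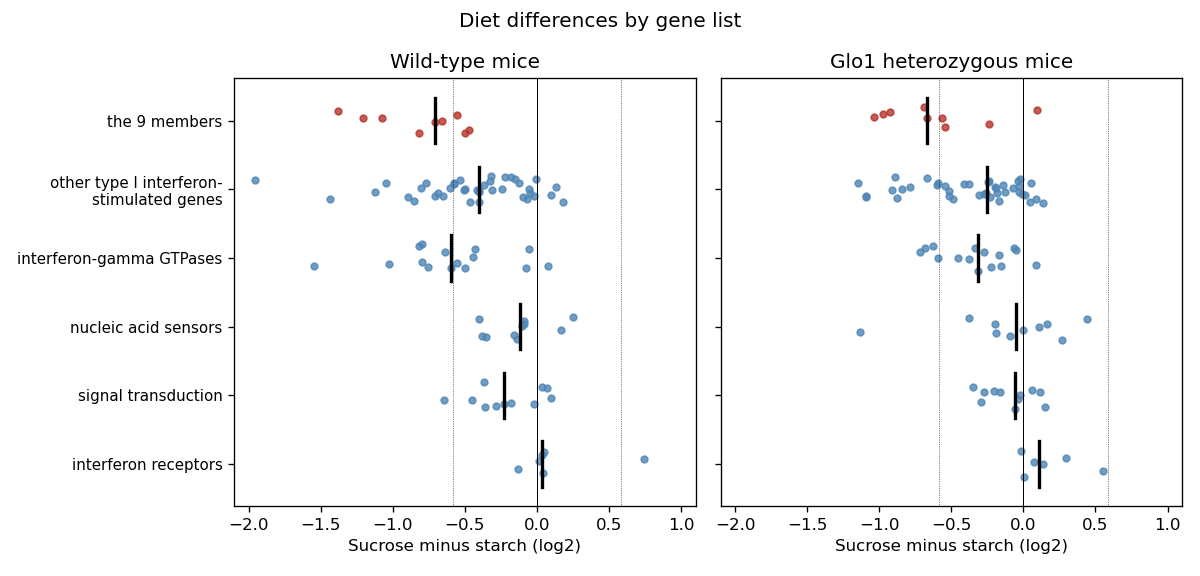
Log2 difference of sucrose minus starch for each measured gene of the members and 5 pathway lists in wild-type (left) and Glo1 heterozygous mice (right); black bars are medians and dotted lines mark 1.5-fold. Members and both target gene lists lie mostly below 0, and the receptor genes other than Ifnlr1 lie between -0.13 and 0.29.

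Without using the pathway lists, the 10 genes with the 4-array profile nearest to the average of the members were looked up among 5754 genes with a comparable span. They were Fam159b, Nlrc5, Rec114, Bglap3, Ifi205, Rsad2, Gm34028, Phf11d, Gm16062 and LOC102643083, at root mean square distances of 0.022 to 0.046 over 4 arrays. Ifi205 and Rsad2, which encodes viperin, are also in the list of other type I interferon-stimulated genes. Nlrc5, the activator of MHC class I genes, had levels of 0.0827 and 0.0472 in wild types and 0.0793 and 0.0539 in heterozygotes. All 10 were dim, in the lower 2 quartiles of signal. Averaging the probes of a gene moved the wild-type diet difference of Nlrc5 from -0.81 to -0.37 and that of Rsad2 from -0.77 to -0.33, and the heterozygous one of Rec114 from -0.68 to -1.01. Under normexp the diet differences were -0.40 and -0.18 for Bglap3, -0.35 and -0.14 for Gm34028, -0.41 and -0.24 for LOC102643083, and -0.60 and -0.30 for Nlrc5. The membership of this list of 10 was not recomputed under the alternatives.

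Markers of cell types that can carry these transcripts were read on the same arrays. Microglia markers (14 of 14 measured) summed to 132 and 125 in wild types (starch, then sucrose) and to 119 and 123 in heterozygous mice, with median diet differences of -0.16 and -0.04. In wild types 9 of the 14 were lower on sucrose (50.1% of all genes) and 5 higher, P2ry12 (0.13) and Trem2 (0.12) the most, and in heterozygotes 10 were lower (49.9%). In wild types C1qa, a complement gene, was lower by 1.5-fold or more (-0.78), and Sall1 (-0.52), C1qb (-0.49) and Tmem119 (-0.47) had the next largest differences. In heterozygotes these 4 had -0.12, -0.37, -0.05 and -0.24. Endothelial markers (13 of 13) summed to 43.4 and 34.6 in wild types and 39.8 and 34.3 in heterozygotes, with medians of -0.06 and -0.13. Most of the lower sum on sucrose is Ly6c1, at 19.1 and 12 in wild types and 15.8 and 12 in heterozygotes. In wild types 7 of the 13 were lower (50.1% of all genes) and 6 higher, Itm2a (0.28) the most, and in heterozygotes 9 were lower (49.9%). In that list the 2 genes lower by 1.5-fold in wild-type mice were Ly6a (-0.71) and Ly6c1 (-0.67), with heterozygous differences of -0.52 and -0.39. Both are known to respond to interferon, and the part of interferon in their differences was not tested. Cldn5 (-0.57) and Pecam1 (-0.35) came next in wild types, and had -0.10 and 0.22 in heterozygotes. Astrocyte markers (8 of 8) had medians of -0.17 and -0.11, with 7 lower in wild types (50.1% of all genes) and 5 in heterozygotes (49.9%). Gfap was lower by 1.5-fold or more in wild types (-0.68) and at 0.35 in heterozygotes. Single markers in these lists were named after their values were seen. The oligodendrocyte markers (7 of 7) had medians of -0.12 and -0.08, with 7 and 4 lower (50.1% and 49.9% of all genes).

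Red blood cell genes (5 of 5) summed to 164 and 76.4 in wild types and to 137 and 87.5 in heterozygotes on starch and sucrose, with medians of -1.58 and -0.81 and all 5 genes ordered like the 8 members. Leukocyte markers (9 of 11 measured, without Cd3g and Ncr1) summed to 22.8, 22.8, 22.7 and 20.5 on wild-type starch, wild-type sucrose, heterozygous starch and heterozygous sucrose. That sum is mostly Klrb1c, at 16.1 to 18.8, and Ptprc, at 3.27 to 3.67, so it says little of the dimmer markers. The list medians were -0.38 and -0.14, with 7 of 9 genes lower on sucrose in each genotype (50.1% and 49.9% of all genes). Neutrophil genes in the list were lower on sucrose in both genotypes, as most members were: Ly6g had diet differences of -0.83 and -0.44, S100a8 of -0.79 and -0.47, and S100a9 of -0.54 and -0.48. For genotype these 3 differed, with S100a9 at 0.81 on starch and 0.88 on sucrose, S100a8 at 0.42 and 0.74, and Ly6g at -0.34 and 0.05. Ptprc, which leukocytes and microglia share, had diet differences of 0.01 and -0.09, and Ccr2 read 0.0845 on wild-type starch and 0.0124 to 0.0142 on the other arrays. These leukocyte genes were singled out after their values were seen. The part of blood or of any cell type in the difference of the members was not tested. The 11 control genes had medians of -0.05 and -0.05, with 9 lower in wild types and 10 in heterozygotes (50.1% and 49.9% of all genes). B2m was the lowest of them in wild types (-0.47) and had -0.07 in heterozygotes.

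**Figure D5:**
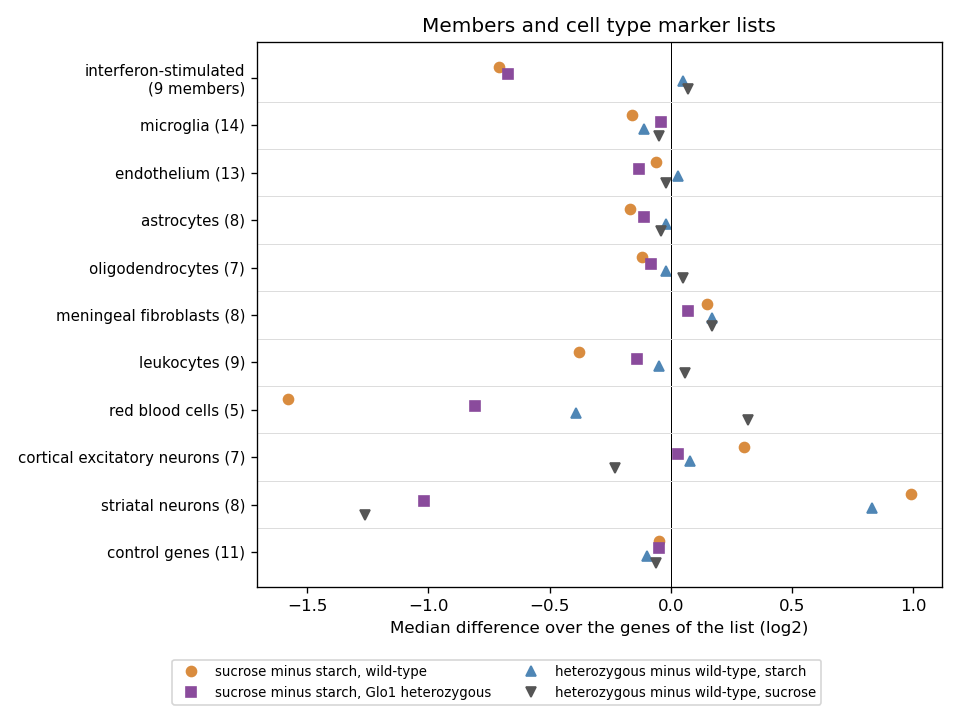
Median log2 difference of the 9 members and of 10 marker or control lists (genes measured in brackets) for diet in each genotype and genotype on each diet; choroid plexus, with medians of 0.40 and 4.24 for diet, is left out. The members have diet medians of -0.71 and -0.67, red blood cell genes -1.58 and -0.81, and microglia, astrocyte and endothelial genes lie between -0.17 and -0.04.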

How the data were processed

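The deposited intensity values were processed signals of Agilent Feature Extraction 11.5.1.1, per the submitters' processing notes and the file headers: background was subtracted and detrended within each array, with no step between arrays. The authors' deposited series matrix held 1 ratio per spot, which equalled processed signal over the 75th percentile given in that array's scanner file. Probe coordinates are mm9, per the file headers.

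Here, log2 processed signal was scaled on each array to the 75th percentile of its 59305 non-control spots. Outlier spots were left out (0 of the members'), spots of a probe averaged, and a gene represented by its brightest probe well above background on all 4 arrays (42094 probes, 20655 genes). The 75th percentiles were 1780.4 to 1928.9 and no spot was saturated. Differences are of single arrays, counted at 1.5-fold and 2-fold, without p-values, because a group has 1 pool. The software's error per spot was carried into each difference. Repeated spots gave a difference an SD of 0.12 in the third signal quartile (5 probes). Pathway genes named were those past 1.5-fold in any of 5 pairwise comparisons, the 15 of largest span among 25 of 89. Genes nearest in profile had a span at least 0.5 times that of the members' mean. The functions were tested on simulated data. Alternatives used limma 3.58.1 in R 4.3.3 and Python 3.11.15. Members and lists were chosen with earlier results of these data known.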

Additional observations from a re-analysis of the deposited data

Results flagged for a closer look

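Within the members, 5 comparisons had opposite signs at the 2 levels of the other factor, and none of these differences was tested, since each level is 1 pool against 1 pool. Each of the 9 members was read in 2 views, diet and genotype. Opposite signs were not counted over all genes, so the count of 5 says nothing particular to the members. For Bst2 the diet difference was -1.21 in wild types and 0.10 in heterozygotes, and the genotype difference was -0.74 on starch and 0.56 on sucrose, 1.30 apart in both views of the same 4 values. For Ifit1 the genotype difference was 0.16 on starch and -0.12 on sucrose (-0.27 apart), and for Usp18 it was 0.15 and -0.01 (-0.15 apart). For Irf7 it was -0.10 and 0.07 (0.17 apart), but the opposite sign was lost with the mean over its probes (-0.08 and -0.03), and its second probe had -0.06 and -0.12.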

How the results depend on the processing

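The values were recomputed with median scaling, quantile normalisation, cyclic loess, normexp background correction, the authors' matrix, the mean over a gene's probes, outlier spots kept and no filter on dim probes. The members' diet median ran from -0.73 to -0.64 in wild types and from -0.70 to -0.59 in heterozygotes, and 5 to 6 members were past 1.5-fold in each. Lower by that much were 1.58% to 7.19% of all genes in wild types and 0.901% to 4.57% in heterozygotes. Both shares were highest with no filter on dim probes. Of 432 values of single members, 430 moved by less than the error of 0.20. The 2 that moved further were the heterozygous diet differences under normexp of Ifit1 (-0.71) and Usp18 (-0.76). Many of the 432 could not move, so the tally overstates stability. For the members the authors' matrix all but equals the main values, no spot was an outlier, and the filter changed no brightest probe. Averaging over probes could move only Irf7. For Bst2 in heterozygotes the diet difference was 0.07 to 0.10. Under normexp the other type I interferon-stimulated genes lower by 1.5-fold numbered 5 in wild types and 4 in heterozygotes, against 12 and 11, and the GTPases in heterozygotes 0 against 4. The shares of all genes were then 1.58% and 0.901%, against 3.53% and 2%. For the change of both factors 4 to 7 members were past 1.5-fold, all lower. The share of all genes lower by that much ran from 1.16% under normexp to 7.59% with no filter on dim probes. The sign of the interaction median turned under normexp (-0.02). The median of all genes stayed between -0.06 and 0.03. Recomputing the starch-above-sucrose order, the pathway lists and the other named genes, and leaving out single arrays from that order (8 to 9 members), were chosen after seeing the data. With an array left out the order asks less, so that count could not fall below 8. No paired analysis was possible because each group has 1 array and the labels give no replicate numbers. With 1 pool per group, the number of arrays limits the precision, and no array can be left out of a difference.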

Other observations

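The response element search gave further descriptive counts for genes with a RefSeq promoter window. Among the interferon gamma GTPases 9 of 10 genes held the response element and 6 held TTCNNNGAA. Among the other type I interferon-stimulated genes 15 of 35 held it, and among the receptor genes 0 of 5 did. In all windows taken by gene, 3.99% of 27025 genes held the response element and 9.55% held TTCNNNGAA. The 10 genes of nearest profile had windows for 7, of which 2 held the response element.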
